A study of Homo sapiens with 12 samples.

Results

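ETV1, ETV4, ETV5, FOSL1 and EGR1 encode transcription factors whose genes are switched on by ERK, the last kinase of the RAF-MEK-ERK pathway. They were selected by name, as 5 of the 14580 genes measured, and each was represented by 1 probe set, so the rule of keeping the brightest probe set of a gene had no choice to make among them. All 5 were measured on all 12 arrays, and no filter on low values was applied. The cells were A2058, a human melanoma cell line, treated for 24 h, and their total RNA was hybridised to Affymetrix arrays, 3 in each of 4 groups. The groups were DTE (dabrafenib at 100 nM, trametinib at 10 nM and entinostat at 1 µM), DT (dabrafenib and trametinib at those doses), E (entinostat alone at that dose) and DMSO, the vehicle. Dabrafenib inhibits RAF kinases, trametinib inhibits MEK, and entinostat inhibits class I histone deacetylases. All groups came from this 1 line and 1 time, and the MAPK inhibitors were always given together, so their separate effects were not measured.

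ERK phosphorylates ternary complex factors of the ETS family, which sit with serum response factor on CArG boxes in the promoters of immediate early genes such as EGR1. EGR1 is a zinc finger factor that responds within minutes to growth signals. ETV1, ETV4 and ETV5 form the PEA3 group of ETS factors; the repressor CIC holds their genes down until ERK signalling inactivates it, and the ubiquitin ligase COP1 removes their proteins. FOSL1 encodes FRA-1, an AP-1 subunit that pairs with JUN proteins and whose gene and protein both respond to ERK. In melanoma with an activated BRAF these genes are widely used as readouts of pathway output.

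Promoter sequences were held for EGR1 and ETV1 in the RefSeq table (GRCh38.p14), and each is shown as the 250 bases before a transcription start, 5′ to 3′ on the gene's strand. The EGR1 window lies at chr5:138465229-138465478 on the plus strand, and its capitals mark the CArG boxes, the binding sequence of serum response factor. The ETV1 window lies at chr7:13991426-13991675 on the minus strand, and its capitals mark an ETS core (CCGGAA) followed by an octamer bound by CIC (TGAATGGA).
EGR1: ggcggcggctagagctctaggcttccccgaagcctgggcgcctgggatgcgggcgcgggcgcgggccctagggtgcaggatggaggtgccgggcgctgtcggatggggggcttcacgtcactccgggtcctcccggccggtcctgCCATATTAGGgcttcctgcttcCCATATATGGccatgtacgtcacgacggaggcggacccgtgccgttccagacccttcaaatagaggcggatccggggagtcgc
ETV1: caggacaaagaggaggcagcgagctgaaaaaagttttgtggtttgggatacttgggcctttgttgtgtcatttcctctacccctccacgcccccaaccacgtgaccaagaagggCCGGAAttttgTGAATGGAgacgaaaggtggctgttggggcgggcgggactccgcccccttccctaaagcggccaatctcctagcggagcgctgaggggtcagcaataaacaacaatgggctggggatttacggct
Both strands were searched for the CArG box, the ETS core CCGGAA, the AP-1 site TGANTCA, the cyclic AMP response element TGACGTCA and the CIC octamers TGAATGAA and TGAATGGA. The EGR1 window held 2 CArG boxes, at 105 to 96 and at 83 to 74 bases before the start, and none of the other motifs. A CArG box occurred in 1.16% of the 35116 RefSeq windows of the same length, and 2 or more occurred in 11 of them (0.0313%). ETV1 had 6 windows, some of which overlap. The window shown starts upstream of the others and held CCGGAA at 136 to 131 bases and TGAATGGA at 125 to 118 bases before the start, with no overlap between the motifs. It was the only one of the 6 with TGAATGGA, which occurred in 0.832% of all windows. CCGGAA also occurred once in each of 2 other ETV1 windows, which overlap and share that site, and in 14.5% of all windows. TGANTCA, TGACGTCA and TGAATGAA, which occurred in 6.57%, 1.65% and 1.4% of all windows, were not found in either window shown. These matches are letters in a window and say nothing on binding in these cells. ETV4, ETV5 and FOSL1 are named only.

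The arrays of 1 group correlated at 0.9897 to 0.9949 over genes, and no pair of arrays was identical. Sample titles call the arrays biological replicates and the design note calls them technical, so a p-value here covers the spread between arrays alone, and that spread may be technical. The median log2 value of an array averaged 4.66 ± 0.04 in DTE, 4.48 ± 0.11 in DT, 4.88 ± 0.02 in E and 4.68 ± 0.11 in DMSO (SD, n = 3 each). The median gene accordingly stood at -0.17 on the log2 scale in DT against DMSO and at 0.07 in E against DMSO. Many results below are therefore also given after quantile normalization, which removes that shift. A result without such a value is given as deposited only. All 8 measured melanocyte markers lay above the lower quartile of genes in every group, with DMSO means of 8.79 for PMEL, 8.76 for TYR, 8.45 for SOX10 and 6.38 for MITF on the log2 scale. The dimmest of the 8 in DMSO were MLANA at 4.45 and OCA2 at 4.38, below the average array median there, 4.68. CD14, the 1 blood cell marker measured, lay below that quartile in every group. The summed intensity of those 8 was 1820 to 1960 in DTE, 2820 to 3300 in DT, 1510 to 1680 in E and 1680 to 1740 in DMSO, and 5 of the 8 rose and 0 fell in DT against DMSO (median 1.22, TYRP1 by 2.68). In DTE against DT 7 of them fell and 0 rose. Fibroblast markers also moved with treatment: the summed intensity of the 3 measured was 439 to 600 in DTE, 185 to 246 in DT, 301 to 359 in E and 166 to 193 in DMSO, most of it LUM, while DCN lay below the quartile in every group. The 4 epithelial markers summed to 68.3 to 80.4 in DTE, 53.9 to 65.2 in DT, 111 to 126 in E and 75.5 to 99.3 in DMSO, and EPCAM lay below the quartile in DMSO. The part of these markers in the results was not tested. In bulk RNA of this kind fewer expressing cells and less RNA per cell cannot be told apart.

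The comparison of DT with DMSO asked what MAPK inhibition alone did to these factors. All 5 fell, the PEA3 genes and FOSL1 by 7.74-fold or more and EGR1 by 2.1-fold. Taking the PEA3 group first, ETV4 read 15, 13.5 and 13.3 on the 3 DT arrays, against 212, 249 and 229 on the DMSO arrays, in units of linear intensity. The gap between the groups was far wider than the spread within either. ETV4 was at 3.80 ± 0.09 in DT and 7.84 ± 0.11 in DMSO (log2 intensity, SD, n = 3), a log2 change of -4.05 (SE 0.14, 95% interval -4.34 to -3.76, limma adjusted p = 4.14e-13), which left 6.04% of the DMSO level. With 16 added to every intensity before the logarithm the change of ETV4 was -3.04, still called.

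ETV5 read 6.13, 6.65 and 8.52 in DT, against 60.8, 94.6 and 77.7 in DMSO. The lowest of its DMSO arrays was several times the highest DT array. The log2 change was -3.44 (SE 0.17, 95% interval -3.80 to -3.08, adjusted p = 8.05e-11). The DT mean of 2.81 ± 0.25 lay below the lower quartile of all genes in DT, 2.91, so a signal above background was not shown there and the size of the fall is uncertain. With 16 added to every intensity before the logarithm the change of ETV5 was -2.01, still called.

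ETV1 had 17.5, 25 and 18.6 in DT, against 141, 183 and 145 in DMSO. Array 2 of each group was the highest of its 3, and the groups were far apart. The log2 change was -2.95 (SE 0.14, 95% interval -3.26 to -2.65, adjusted p = 6.27e-11), so ETV1 kept 12.9% of its DMSO level. With 16 added it was -2.25.

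FOSL1, the AP-1 subunit, was at 52.5, 55.4 and 52.8 in DT, against 920, 871 and 848 in DMSO. The 3 arrays of each group were close together. The log2 change was -4.04 (SE 0.12, 95% interval -4.28 to -3.79, adjusted p = 5.61e-14). Among all 14580 genes ordered from the most negative log2 change, ETV4 ranked 5, FOSL1 6, ETV5 10 and ETV1 16.

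EGR1, the immediate early factor, read 24.9, 26.1 and 23.9 in DT, against 54.4, 51.1 and 51.2 in DMSO. The groups did not overlap, but the distance between them was much smaller than for the other 4 genes. The log2 change was -1.07 (SE 0.15, 95% interval -1.39 to -0.74, adjusted p = 5.6e-05), which left 47.7% of the DMSO level and ranked 328 of 14580.

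In this comparison 24.1% of all genes were called lower, against 7.86% after quantile normalization. All 5 factors were called lower on both scales. After quantile normalization the log2 changes were -3.73 for ETV4, -3.23 for ETV5, -2.62 for ETV1, -3.65 for FOSL1 and -0.79 for EGR1 (adjusted p = 0.0025 for EGR1).

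**Figure D1:**
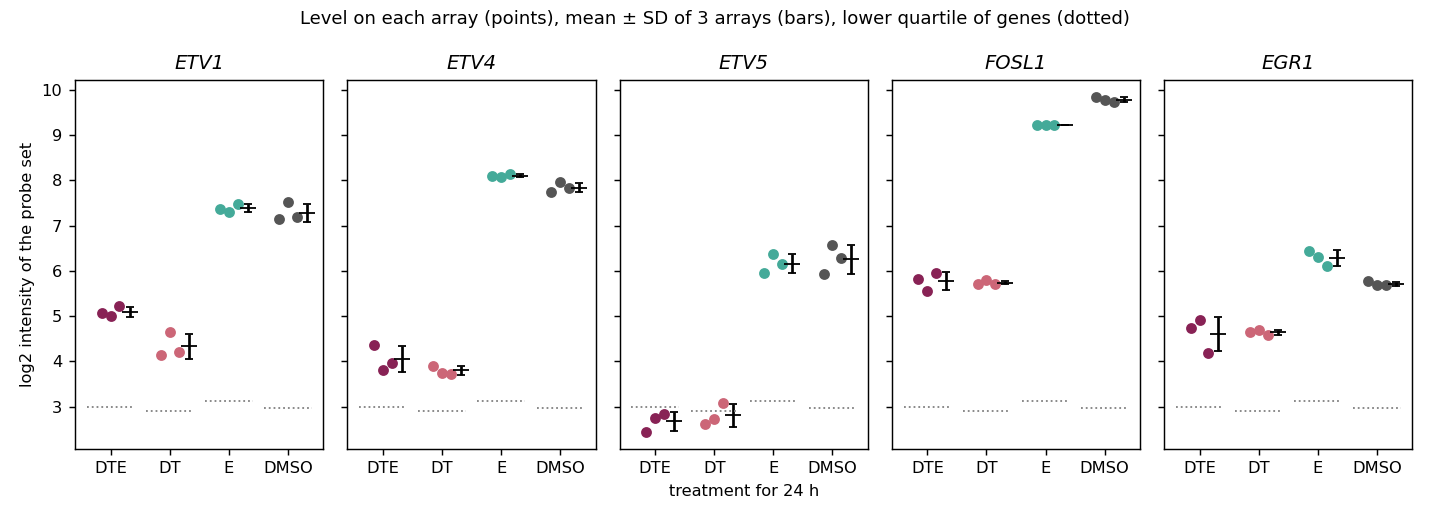
The log2 intensity (y axis) of each gene on every array, 1 panel a gene, with the groups DTE, DT, E and DMSO from left to right; points are arrays, bars the mean ± SD of 3 arrays and dotted lines the lower quartile of all genes in that group. In all 5 genes the 6 arrays with dabrafenib and trametinib lie below the 6 without, the DTE and DT means of ETV5 lie below the dotted lines, and heights are not comparable between genes, whose probe sets differ. The share of all genes with such a separation was not counted, so it is not read as particular to these 5. Genes called lower in both DT against DMSO and DTE against E made up 13.4% of all genes, or 3.48% after quantile normalization.

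The comparison of E with DMSO addressed entinostat without MAPK inhibition, and it shares the DMSO arrays with the comparison above. No PEA3 gene was called. ETV1 read 165, 158 and 179 in E, against 141, 183 and 145 in DMSO, with overlapping arrays and a log2 change of 0.10 (95% interval -0.20 to 0.41, adjusted p = 0.714). ETV4 read 275, 269 and 280 in E, against 212, 249 and 229 in DMSO. These arrays did not overlap, but the change of 0.26 (95% interval -0.03 to 0.54) had an adjusted p of 0.244. ETV5 read 61.8, 82.8 and 71 in E, against 60.8, 94.6 and 77.7 in DMSO, a change of -0.10 (95% interval -0.46 to 0.26, adjusted p = 0.775). The intervals of these 3 genes reach up to 0.54 and down to -0.46, so smaller changes were not resolved.

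FOSL1 and EGR1 moved in opposite directions. FOSL1 had 601, 593 and 597 in E, against 920, 871 and 848 in DMSO, with no overlap. It fell 1.47-fold (log2 change -0.56, SE 0.12, 95% interval -0.81 to -0.31, adjusted p = 0.00275), and after quantile normalization the change was -0.52 (adjusted p = 0.0042). EGR1 had 86.5, 79.5 and 68.8 in E, against 54.4, 51.1 and 51.2 in DMSO, again with no overlap. It rose 1.49-fold (log2 change 0.58, SE 0.15, 95% interval 0.25 to 0.90, adjusted p = 0.0145). The rise of EGR1 missed the threshold after quantile normalization (0.46, adjusted p = 0.0603) and without E replicate 1 (0.50, adjusted p = 0.0677). Over all genes 12.5% were called higher and 3.54% lower, or 9.67% and 8.45% after quantile normalization.

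The 3 drugs together were compared with DMSO. All 5 factors were again called lower, where 22.5% of all genes were (14.2% after quantile normalization). ETV4 read 20.7, 13.9 and 15.7 in DTE, against 212, 249 and 229 in DMSO, a log2 change of -3.80 (SE 0.14, adjusted p = 1.27e-12). FOSL1 read 56.1, 47.1 and 62 in DTE, against 920, 871 and 848 in DMSO, a change of -4.01 (SE 0.12, adjusted p = 9.59e-14). Neither gene's DTE arrays came near its DMSO arrays. ETV5 read 5.43, 6.78 and 7.13 in DTE, against 60.8, 94.6 and 77.7 in DMSO, a change of -3.58 (SE 0.17, adjusted p = 6.27e-11), and its DTE mean of 2.68 ± 0.21 lay below the lower quartile there, 2.99. ETV1 read 33.6, 32.1 and 37.1 in DTE, against 141, 183 and 145 in DMSO, a change of -2.19 (SE 0.14, adjusted p = 4.09e-09). EGR1 read 26.6, 30.1 and 18.2 in DTE, against 54.4, 51.1 and 51.2 in DMSO. Replicate 3 was the lowest of its DTE arrays, and none reached a DMSO array (change -1.10, SE 0.15, adjusted p = 3.08e-05). After quantile normalization the changes ran from -3.74 for FOSL1 to -0.99 for EGR1.

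**Figure D2:**
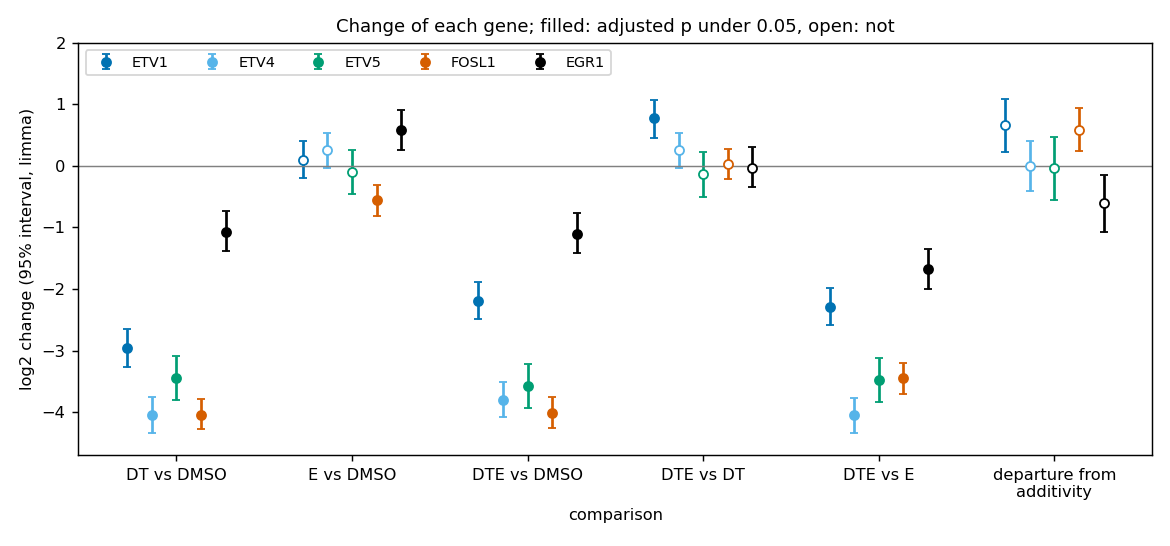
The log2 change of each gene in each comparison with its 95% interval from limma; filled points have an adjusted p under 0.05 over all genes and open points do not. ETV4, ETV5 and FOSL1 lie between -4.05 and -3.44 wherever dabrafenib and trametinib are added, ETV1 between -2.95 and -2.19 and EGR1 between -1.67 and -1.07.

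The comparison of DTE with DT asked what entinostat added once the MAPK inhibitors were present. Among the 5 factors ETV1 was called, and it rose. ETV1 had 33.6, 32.1 and 37.1 in DTE, against 17.5, 25 and 18.6 in DT, so every DTE array was above every DT array. The rise was 1.7-fold (log2 change 0.77, SE 0.14, 95% interval 0.46 to 1.07, adjusted p = 0.000797), and it was 0.63 after quantile normalization (adjusted p = 0.0009). In this comparison 13.8% of all genes were called higher, or 12.2% after quantile normalization.

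The other 4 factors were not called, and in each the DTE and DT arrays overlapped. ETV4 stood at 0.25 (95% interval -0.04 to 0.54, adjusted p = 0.238) and ETV5 at -0.13 (95% interval -0.50 to 0.23, adjusted p = 0.67). FOSL1 stood at 0.03 (95% interval -0.22 to 0.28, adjusted p = 0.909) and EGR1 at -0.03 (95% interval -0.35 to 0.30, adjusted p = 0.939). For FOSL1 the sign changed with the scale, to -0.10 after quantile normalization, and for EGR1 the value was 0.18 without DTE replicate 3.

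The comparison of DTE with E asked what the MAPK inhibitors did in cells that also received entinostat. It shares no array with DT against DMSO. All 5 factors were called lower, where 22.4% of all genes were (5.84% after quantile normalization). The log2 change was -4.05 for ETV4 (SE 0.14, adjusted p = 6.61e-13), -3.48 for ETV5 (SE 0.17, adjusted p = 8.88e-11) and -2.29 for ETV1 (SE 0.14, adjusted p = 2.9e-09). FOSL1 changed by -3.45 (SE 0.12, adjusted p = 6.61e-13) and EGR1 by -1.67 (SE 0.15, adjusted p = 4.72e-07). After quantile normalization they were -3.85, -3.27 and -2.06 for ETV4, ETV5 and ETV1, -3.22 for FOSL1 and -1.44 for EGR1. Genes lower in both independent comparisons made up 13.4% of all genes, or 3.48% after quantile normalization, and all 5 factors were among them on both scales.

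Whether entinostat altered the effect of the MAPK inhibitors was tested as the departure from additivity, the change in DTE against E less the change in DT against DMSO. None of the 5 factors passed limma's test over all genes, where 1.04% of genes did (2.15% after quantile normalization). ETV1 had a departure of 0.66 (95% interval 0.23 to 1.09, unadjusted p = 0.00448, adjusted p = 0.146) and FOSL1 one of 0.59 (95% interval 0.24 to 0.94, unadjusted p = 0.00246, adjusted p = 0.108). Neither passed, and EGR1 had the opposite sign at -0.61 (95% interval -1.07 to -0.15, unadjusted p = 0.0126, adjusted p = 0.244). ETV4 and ETV5 stood at -0.00 and -0.04, with intervals of -0.41 to 0.40 and -0.55 to 0.47. The ETV1 departure passed after median centring (0.69, adjusted p = 0.0473) and the FOSL1 departure with 16 added to the intensities (0.57, adjusted p = 0.0198).

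**Figure D3:**
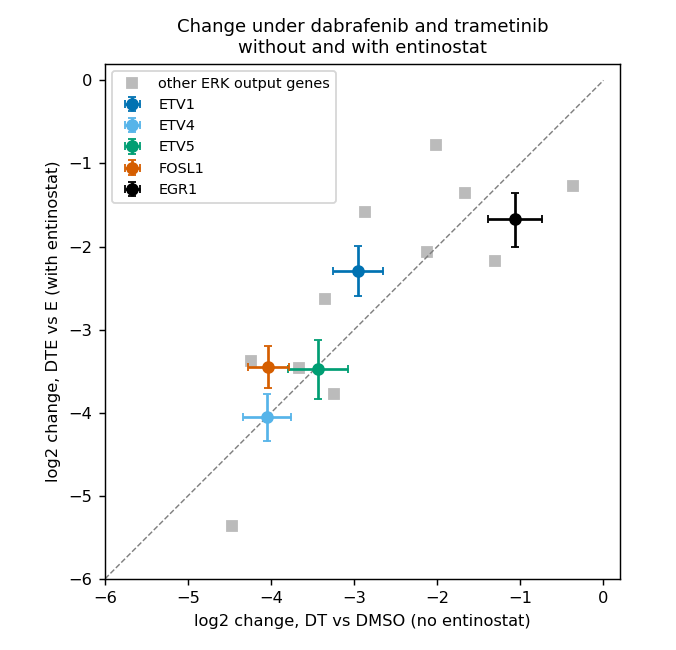
The log2 change made by dabrafenib and trametinib without entinostat (DT against DMSO, x axis) and with it (DTE against E, y axis), with 95% intervals for the 5 genes and grey squares for 11 other genes of ERK output. ETV4 and ETV5 lie on the line of equal change, ETV1 and FOSL1 above it and EGR1 below it. On these deposited values none of the 5 passed limma's test of departure from additivity over all genes.

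How far the 5 factors differed in their response was tested on the difference between log2 values of a gene pair on the same array, which does not depend on that array's scaling. Averaged over arrays with and without entinostat, the MAPK inhibitors changed ETV4 by -4.05, FOSL1 by -3.74, ETV5 by -3.46, ETV1 by -2.62 and EGR1 by -1.37 (two-sided exact permutation p = 0.005 for each, the smallest that the 400 arrangements allow). EGR1 changed less than each of the others. The difference in change was -2.68 for ETV4 minus EGR1, -2.37 for FOSL1 minus EGR1 and -2.09 for ETV5 minus EGR1 (exact permutation p = 0.005, adjusted p = 0.01 over the 10 pairs, for each). For ETV1 minus EGR1 it was -1.25 (exact permutation p = 0.015, adjusted p = 0.0187), made up of -1.89 without entinostat and -0.62 with it.

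Within the PEA3 group ETV1 changed less than ETV4, by 1.43 (exact permutation p = 0.005, adjusted p = 0.01), and less than ETV5, by 0.84 (exact permutation p = 0.01, adjusted p = 0.0167). ETV4 minus ETV5 was -0.59 (exact permutation p = 0.015, adjusted p = 0.0187), with an adjusted p of 0.05 without E replicate 1 or 3. Since ETV5 was not shown above background in DT and DTE, its own fall may be understated, and which of the 2 fell more cannot be read from this value. The differences that involve ETV5 rest on those dim arrays: with 16 added to the intensities ETV1 minus ETV5 was -0.07 (adjusted p = 0.515). ETV1 also changed less than FOSL1, by 1.12 (exact permutation p = 0.005, adjusted p = 0.01). ETV4 minus FOSL1 was -0.31 (exact permutation p = 0.05, adjusted p = 0.0556) and ETV5 minus FOSL1 0.28 (exact permutation p = 0.17, adjusted p = 0.17), neither of which passed. ETV4 minus FOSL1 did pass without DMSO replicate 1 (-0.35, adjusted p = 0.0187), without DT replicate 1 (-0.34, adjusted p = 0.0278) and after quantile normalization (-0.36, adjusted p = 0.0222). With 16 added to the intensities its sign turned, to 0.30 (adjusted p = 0.0667). Leaving out 1 array gave adjusted p-values up to 0.117, so the order of ETV4 and FOSL1 was not settled.

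Genes with the most similar pattern were found by Pearson's r of log2 intensity over the 12 arrays, among 10935 genes above the lower quartile. With 12 arrays in 4 groups, such an r mostly reflects the group means and is given as a description. Genes picked this way tend to change like the factor by the choice itself, so their changes are no separate evidence. The closest to ETV1 were IFNGR2, MYC and SHISA2 (r = 0.997 each) and SPRY2 (0.994). Of these MYC, a growth-promoting transcription factor, stood at 0.44 in DTE against DT, SPRY2, a feedback inhibitor of receptor signalling, at 0.85, SHISA2 at 0.82 and IFNGR2, a receptor chain for interferon gamma, at 0.37, beside 0.77 for ETV1. ETV4 was closest to THBS2 (0.994), CEMIP (0.993), DUSP6 and AEN (0.992 each), of which DUSP6 is the phosphatase of ERK itself. ETV5 was closest to DUSP4 (0.990), another such phosphatase, CEMIP (0.989), TOP1 (0.988) and FOSL1 (0.987). FOSL1 was closest to UCN2 (0.995), CEMIP (0.994), CMTM7 (0.993) and MEX3C (0.990).

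EGR1 was closest to TMC6 (r = 0.988), LIF (0.985), ANGPTL4 (0.981) and BIN1 (0.981). LIF, a cytokine, stood at -2.38 in DT against DMSO and 0.86 in E against DMSO, and ANGPTL4, an inhibitor of lipoprotein lipase, at -1.66 and 1.12 in the same comparisons. TMC6 and BIN1 stood at -0.84 and -0.60 in DT and at 0.45 and 0.34 in E. Between the 5 factors r was highest for ETV5 with FOSL1 (0.987) and lowest for FOSL1 with EGR1 (0.889).

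The relatives of these factors were counted by family. Of the other ETS genes, 20 of 25 listed were measured, and in DT against DMSO 7 fell and 1 rose, with a median of -0.27 beside -0.17 for all genes. After quantile normalization 6 fell and 2 rose, with a median of -0.05. FLI1 fell by 1.79 (adjusted p = 1.09e-08), and the repressors ETV3 and ETV6 fell by 1.29 (adjusted p = 1.37e-06) and 1.20 (adjusted p = 2.42e-06). ETS1, itself a target of ERK phosphorylation, rose by 0.62 (adjusted p = 0.00106). In DTE against DMSO 7 fell and 1 rose (4 and 1 after quantile normalization), with FLI1 at -1.53 and ETS1 at 0.49. In E against DMSO 2 rose, EHF by 0.61 and ETS1 by 0.43, and 0 fell. After quantile normalization the calls were 1 each way, and EHF was not called (adjusted p = 0.0672).

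Of the other AP-1 genes, 13 of 19 were measured. In DT against DMSO 2 fell, JUNB by 0.53 (adjusted p = 0.00235) and FOS by 0.34 (adjusted p = 0.0471), and MAF rose by 0.46 (adjusted p = 0.012). After quantile normalization neither fall was called (-0.17 for JUNB and -0.14 for FOS). FOSL1's closest relative FOSL2 stood at -0.08 (adjusted p = 0.724), beside -4.04 for FOSL1. In E against DMSO 3 rose and 1 fell (2 and 1 after quantile normalization), the fall being MAF at -0.62. In DTE against DMSO 2 rose and 4 fell, with MAFF at -0.94, MAFG at -0.46, FOS at -0.41 and JUNB at -0.34 (4 rose and 2 fell after quantile normalization). MAFG and JUNB were not called after quantile normalization (adjusted p = 0.167 and 0.637). JUN, a dimer partner of FRA-1, stood at -0.14 (adjusted p = 0.505) in DT and rose by 0.78 in E (adjusted p = 0.000479) and by 0.84 in DTE (adjusted p = 0.000116) against DMSO. ATF3, a stress-induced member, rose by 0.55 in E (adjusted p = 0.0303) and by 1.22 in DTE (adjusted p = 2.25e-05), the first of which was not called after quantile normalization. In DTE against DT 2 rose and 1 fell (2 each way after quantile normalization), with JUN at 0.97, ATF3 at 1.12 and MAF at -0.58, beside 0.03 for FOSL1.

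Of the other EGR genes and their NAB corepressors, 4 of 5 were measured. EGR3 fell in DT by 0.76 (adjusted p = 0.00133) and in DTE by 0.81 (adjusted p = 0.000607) against DMSO, and stood at 0.26 (adjusted p = 0.296) in E. NAB2, which binds EGR proteins and restrains them, stood at -0.12 (adjusted p = 0.536) in DT and fell by 0.51 (adjusted p = 0.00469) in DTE. EGR4 and NAB1 stood at -0.22 and -0.15 in DT. Of 15 other serum response and immediate early genes 9 were measured, and 5 fell in DT while 0 rose (3 and 1 after quantile normalization), the largest falls being MCL1 at -1.51, IER2 at -1.02 and KLF10 at -0.81. In E 3 rose and 0 fell, IER5 by 0.78, ARC by 0.57 and IER2 by 0.44, or 1, IER5, after quantile normalization.

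**Figure D4:**
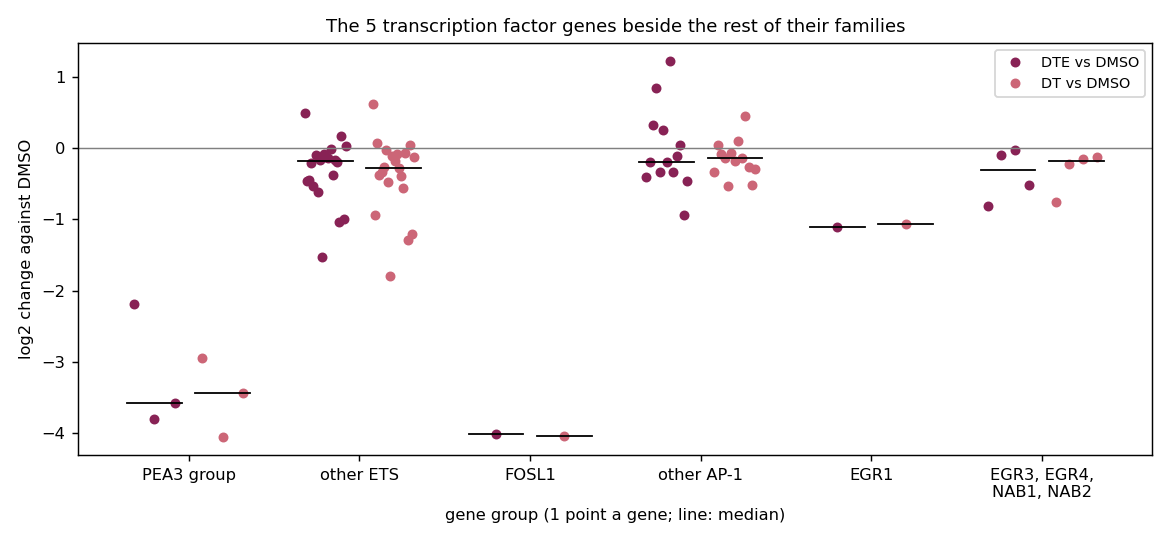
The log2 change (y axis) in DTE against DMSO (dark) and DT against DMSO (light) of each measured gene of a family; points are genes and lines are medians. In DT against DMSO the other ETS genes have a median of -0.27 and the other AP-1 genes one of -0.14, while FOSL1 stands at -4.04 and ETV1, ETV4 and ETV5 lie between -4.05 and -2.95.

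Of 7 listed regulators of the PEA3 proteins and genes, 4 were measured. ATXN1, a partner of CIC, stood at -0.65 and CUL4A, a subunit of the ubiquitin ligase that works with COP1, at -0.55 in DT against DMSO, both called as deposited and neither after quantile normalization. ATXN1 rose by 0.56 in E against DMSO and by 0.62 in DTE against DT, both also called after quantile normalization. ATXN1L and DET1 stood at -0.23 and -0.24 in DT, below the threshold. CIC and COP1 themselves were not analysed here.

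Genes known as targets of these factors were taken from general knowledge, not from binding data in these cells, and some stand in more than 1 list. Of 11 listed PEA3 targets 8 were measured, of which 6 fell in DT against DMSO and 0 rose, with a median of -0.62 (4 fell, median -0.31, after quantile normalization). MMP1, a collagenase, fell by 2.22. MMP13, another collagenase, fell by 2.46, with the DT mean of MMP13 below the lower quartile of genes. Of 13 AP-1 targets 6 were measured, and 5 fell while HMOX1, a haem-degrading enzyme, rose by 0.42 (4 fell and 1 rose after quantile normalization). CXCL8, a chemokine, fell by 4.33, also to a DT mean below that quartile, and HMGA1, a chromatin protein, fell by 1.27. In DTE against DT, MMP1 stood at 0.44, MMP13 at 0.94 and CXCL8 at 2.30, and MMP14, a membrane-bound protease, at -0.76, all called.

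Of 11 listed EGR1 targets 7 were measured. In DT against DMSO 4 fell and 0 rose, also after quantile normalization: FGF2 by 1.11, PDGFA by 1.09, FN1 by 0.79 and THBS1 by 0.77. In E against DMSO, the comparison in which EGR1 stood at 0.58, 5 rose and 0 fell, with a median of 0.46 beside 0.07 for all genes. PDGFB, a growth factor gene, rose most among them, by 1.23. The count was 4 after quantile normalization and 1 after median centring. In DTE against DMSO, where EGR1 stood at -1.10, 2 rose and 2 fell, with a median of 0.08. After quantile normalization 4 rose and 2 fell there, with a median of 0.28. In DTE against DT, 6 rose and 1 fell (5 and 1 after quantile normalization) with a median of 0.91, PDGFB by 1.40 and FGF2 by 1.13, while EGR1 stood at -0.03.

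The wider output of ERK gave the setting. All 11 measured of 17 other ERK output genes fell in DT against DMSO, with a median of -2.87 (10 fell, median -2.51, after quantile normalization), and all 11 fell in DTE against E, with a median of -2.17. The largest falls in DT were DUSP6 at -4.47, SPRY2 at -4.24 and DUSP4 at -3.66, beside -4.05 for ETV4 and -4.04 for FOSL1. TRIB1 stood at -0.37 and lost its call after quantile normalization (-0.00, adjusted p = 0.983), and DUSP5 stood at -1.30 with a DT mean below the lower quartile of genes, beside -1.07 for EGR1. In DTE against DT 7 rose and 1 fell, also after quantile normalization, IER3 by 1.96, EPHA4 by 0.91 and SPRY2 by 0.85, beside 0.77 for ETV1. TRIB1 was the 1 that fell, by 0.85. Departures from additivity were called for IER3 (1.29, adjusted p = 0.0006), EPHA4 (1.25, adjusted p = 0.0063), SPRY2 (0.87, adjusted p = 0.0108) and TRIB1 (-0.90, adjusted p = 0.00781).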

How the data were processed

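The authors deposited 1 linear intensity per probe set and array. Per the submitters' processing notes RMA (background correction, normalization and probe summary) and the Transcriptome Analysis Console were used, with versions, genome build and any later scaling not given in the sources used here. Groups were taken from the treatment labels. Of 29396 probe sets 14748 had 1 gene symbol, 0 had several and 14648 had none. The symbols were updated by NCBI gene identifier (14748 matched), and the brightest probe set of a gene was kept (156 genes had several), which gave 14580 genes.

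Intensities were converted to log2 and group means fitted over all 12 arrays with limma 3.58.1 in R 4.3.3 (lmFit, contrasts, eBayes), tested on simulated data first. P-values were adjusted by Benjamini-Hochberg across the 14580 genes of each comparison, with genes called at an adjusted p under 0.05. Rose, fell and called refer to this test. Standard errors are limma's, and the number of arrays limits the precision. Pairs of genes were compared by exact permutation of the arrays within entinostat strata in Python 3.11.15.

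The 5 genes and the gene lists were chosen with earlier results of these data known. Named genes were the 5, the 4 genes most like each, up to 3 called genes each way per list and comparison, and all genes of lists with 6 or fewer measured. DUSP5, FOSL2 and THBS1 fall outside this rule and were chosen after their values were seen. SOX10, and JUNB in DTE against DMSO, fall outside it too. Alternatives were quantile normalization, median centring, 16 added to the intensities, other limma settings, a filter on dim genes, the replicate block and leaving out each array.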

Additional observations from a re-analysis of the deposited data

How the results depend on the processing

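The members' calls in DT against DMSO, DTE against DMSO and DTE against E, and the call of ETV1 in DTE against DT, held under every alternative run. In E against DMSO the number of the 5 factors called was 1, FOSL1, after quantile normalization and median centring, where EGR1 stood at 0.46 and 0.38 (adjusted p = 0.0603 and 0.0941), and ETV1 turned to -0.09 after median centring. Leaving out 1 array gave 0.50 to 0.67 for EGR1, 1 to 2 factors called, and -0.26 to 0.05 for ETV5. In DTE against DT, FOSL1 was -0.10 after quantile normalization and -0.14 after median centring, and leaving out 1 array gave -0.06 to 0.14 for FOSL1, -0.23 to 0.00 for ETV5 and -0.18 to 0.18 for EGR1. For the departure from additivity 1 factor was called after median centring (ETV1, 0.69) and 1 with 16 added (FOSL1, 0.57). ETV4 was 0.02 after median centring and ETV5 0.04 with 16 added, and leaving out 1 array gave -0.17 to 0.12 and -0.19 to 0.13. Among gene pairs, with 16 added ETV1 minus ETV5 was -0.07, ETV4 minus FOSL1 0.30 and ETV5 minus FOSL1 1.42 (adjusted p = 0.00625), and ETV4 minus FOSL1 was -0.36 after quantile normalization (adjusted p = 0.0222). That offset exceeds the ETV5 intensities in DT and DTE, and those of ETV4 in DT and on DTE replicates 2 and 3. It so compresses the changes of both genes, to -3.04 for ETV4 in DT against DMSO. The cause of the other shifts was not tested. Leaving out 1 array, an alternative chosen for the pairs after seeing the data, gave -0.73 to -0.50 for ETV4 minus ETV5, with an adjusted p of 0.05 without E replicate 1 or 3, and -0.38 to -0.24 for ETV4 minus FOSL1, which passed without DMSO replicate 1 (-0.35, adjusted p = 0.0187) or DT replicate 1 (-0.34, adjusted p = 0.0278). Over all genes the calls in DT were 471 higher and 3514 lower as deposited, 1247 and 1146 after quantile normalization and 1178 and 1743 after median centring. In E they were 1825 and 516, 1410 and 1232, and 1098 and 2372, in DTE against DMSO 1405 and 3285, 2065 and 2064, and 1604 and 3360, in DTE against DT 2014 and 742, 1786 and 1752, and 1364 and 2245, in DTE against E 303 and 3271, 1019 and 851, and 978 and 1007, and for the departure 82 and 69, 174 and 140, and 160 and 107. Lower calls were 122 for the departure with 16 added, and 136 higher and 106 lower with a trended robust variance. Leaving out 1 array moved the lower calls to 2267 to 3923 in DT, 303 to 580 in E, 473 to 777 in DTE against DT and 2132 to 3372 in DTE against E, and the departure to 46 to 108 higher and 36 to 69 lower. The replicate numbers were not taken to pair the arrays, since no label gives same-numbered arrays a shared source and deviations from the group means correlated at -0.097 to 0.172 over the 18 same-numbered pairs, of which 3 exceeded 0.1. Yet 9 of 12 arrays correlated best with their own number, a hint from the data and not from the design. With the replicate block no call of the 5 factors changed (EGR1 in E at 0.58, adjusted p = 0.00661), and the calls in DT were 492 higher and 3736 lower. Values below the lower quartile of genes limit what can be said of ETV5 in DT and DTE.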
